A study of Mus musculus with 16 samples.

Results

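The 36 genes described here encode lysosomal enzymes and lysosomal membrane proteins. They were taken by name from the 20490 genes of the table, leaving out the cathepsins and the subunits of the proton pump. All 36 were in the table. Messenger RNA was measured by RNA sequencing in RAW264.7 cells, a single mouse macrophage line which the labels call an osteoclast precursor. Once the cells had attached for 12 h, they were given phosphate-buffered saline (PBS), vesicles at 30 µg/mL (EV), recombinant mouse RANKL at 10 ng/mL, or vesicles and RANKL together (EV+RANKL), each for 48 h or 72 h. RANKL is the cytokine that turns these cells into bone-resorbing osteoclasts, and the vesicles, membrane particles released by cells, came from PC3M, a human prostate cancer line. The 8 groups had 2 libraries each (n = 2 for every mean and SD), and no label says whether they were separate cultures, so each p-value rests on the spread between such library pairs, which may be technical. The comparisons are of RANKL with PBS, of vesicles with PBS, of vesicles and RANKL with either alone, and of 72 h with 48 h.

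The lysosome is the acid compartment in which cells take apart glycans, lipids and proteins. Its soluble hydrolases are made in the secretory pathway and delivered by receptors for mannose 6-phosphate, while heavily glycosylated membrane proteins line the organelle and carry the products out. Macrophages are rich in lysosomes, and osteoclasts fuse lysosome-related vesicles with the membrane that faces bone to acidify and digest the matrix. Many lysosomal genes carry a short element in their promoters, the CLEAR element, whose core is an E-box and which is bound by the transcription factors TFEB and TFE3.

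Promoters were found for 33 of the 36 genes in RefSeq sequence of the mouse build GRCm38.p6, each from 250 bases before to 50 after a start of the gene. There were 36 such promoters, since Lgmn, Cln3 and Psap had 2 starts each. Npc1, Asah1 and Galns had no entry. The E-box core CACGTG, which reads the same on both strands, was present for 11 of the 33 genes (33.3%), against 12.3% of the 7798 tested genes with a promoter and 8.09% of all 27025 genes with one. For Lgmn and Cln3 it lay in 1 of the 2 promoters and not in the other, and the promoter that holds it is the one shown. The longer core TCACGTGA, which contains it and also reads the same on both strands, was present for 4 of 33 (12.1%), against 2.39% of tested genes. The stretches around the E-boxes of 8 genes are shown. These are the genes with the longer core, with repeated E-boxes or with calls in the treatment comparisons described further on. Capitals mark CACGTG or, where it is complete, TCACGTGA, and each stretch runs 5′ to 3′ along the strand of the gene, with 30 bases on either side of the E-boxes where these lie before the start and within the 250 bases.
Mcoln1, chr8:3500418-3500509, plus strand: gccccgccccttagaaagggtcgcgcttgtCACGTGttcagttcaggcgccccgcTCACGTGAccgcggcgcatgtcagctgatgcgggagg
Gla, chrX:134601164-134601255, minus strand: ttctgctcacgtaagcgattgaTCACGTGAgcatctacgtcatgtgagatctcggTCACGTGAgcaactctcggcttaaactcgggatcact
Cln3, chr7:126583322-126583415, minus strand: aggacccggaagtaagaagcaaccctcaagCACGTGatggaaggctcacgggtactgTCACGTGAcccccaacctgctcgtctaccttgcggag
Cd164, chr10:41519383-41519448, plus strand: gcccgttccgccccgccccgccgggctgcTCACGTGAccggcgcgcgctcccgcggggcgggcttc
Lamp1, chr8:13159070-13159160, plus strand: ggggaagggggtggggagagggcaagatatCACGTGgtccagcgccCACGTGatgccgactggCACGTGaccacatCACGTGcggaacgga
Glb1, chr9:114401000-114401065, plus strand: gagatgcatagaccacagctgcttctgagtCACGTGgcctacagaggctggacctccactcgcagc
Sgsh, chr11:119355511-119355569, minus strand: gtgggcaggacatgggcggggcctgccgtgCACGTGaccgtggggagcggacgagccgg
Lgmn, chr12:102439106-102439171, minus strand: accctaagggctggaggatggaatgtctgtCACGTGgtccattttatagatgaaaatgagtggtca

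Mcoln1, Gla and Cln3 each held a pair of E-boxes, and both of those of Gla lay within the longer core. Lamp1 held 4 E-boxes within 61 bases of its start, none of them in the longer core. In the other genes shown the single E-box began 87 bases or fewer before the start. Arsa, Naglu and Gaa also held 1 E-box each. The AP-1 motif TGANTCA, searched on both strands, was present for Glb1, where it overlaps the E-box, for Psap, in 1 of its 2 promoters, and for Neu1, which is 3 of 33 genes (9.09%) against 5.76% of tested genes. A match describes letters only and shows no binding.

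Expression is given in RPKM, reads per kilobase of gene scaled to the depth of the library, so levels can be compared between genes. The tests ran on log2(RPKM + 1), where a difference of 1 is close to a doubling for well expressed genes. Depth was estimated from the values at 18.3 to 20.0 M reads per library, and 1 read in a gene of 1 kb was worth 0.0499 to 0.0546 RPKM. All 36 genes were at 1 RPKM or more in every library, the lowest value being 2.01 RPKM for Idua, so none rests on a handful of reads. A gene is called when its limma p, adjusted over all 10365 tested genes with the Benjamini-Hochberg method, is below 0.05. Counts at an unadjusted p below 0.05 were not made over all tested genes, so they have no share to stand beside. Groups that do not overlap were not counted over all tested genes either, and 2 groups of 2 libraries separate easily. As to the libraries, 5 of 72 h stood apart from the other 11, namely both of EV, both of EV+RANKL and RANKL replicate 2. There the ribosomal protein genes held 10.2% to 10.6% of summed RPKM, against 7.53% to 8.96% in the 11 others. Of the 36 genes, 3 (8.33%) lay above all 11 other libraries in all 5, namely Mcoln1, Psap and Smpd1, and 0 lay below, against 7.54% and 7.5% of all tested genes. Macrophage and osteoclast markers moved with RANKL, and osteoclast markers also with vesicles. The summed level of 10 macrophage markers was 7743 to 8259 RPKM with PBS and 3266 to 3272 with RANKL at 48 h, and that of 10 osteoclast markers was 17.5 to 19.2 and 280.5 to 298.2 RPKM. At 72 h these sums were 6133 to 7016 against 2579 to 3325 RPKM for macrophage markers and 18.6 to 19.4 against 456 to 836 RPKM for osteoclast markers. With vesicles alone the osteoclast sum was 83.7 to 92.5 RPKM at 48 h and 97.04 to 126 RPKM at 72 h, and the macrophage sum 6108 to 7481 and 6156 to 6387 RPKM. Most of the macrophage sum was Lyz2, with a mean of 5764 of 8001 RPKM in PBS at 48 h. At 72 h Lyz2 had a mean of 4472 RPKM with PBS and 1422 RPKM with RANKL. Of the other macrophage markers, Fcgr1 went from a mean of 18.3 to 2.27 RPKM with RANKL at 48 h, Spi1 rose from 97.03 to 127 RPKM, and Mrc1 was never above 0.530 RPKM. Of the osteoclast markers, the highest values in any library were 663 RPKM for Acp5, 412.5 for Ctsk, 313 for Atp6v0d2, 147 for Nfatc1, between 17.9 and 22.5 for Mmp9, Ocstamp, Dcstamp and Oscar, 1.48 for Itgb3 and 0.133 for Calcr. The part of these shifts in the results below was not tested, and fewer cells of a type and less RNA per cell cannot be told apart in bulk samples. Markers of epithelial or carcinoma cells summed to at most 0.302 RPKM and those of stromal or bone-forming cells to at most 1.52 RPKM.

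The genes spanned a wide range of levels. Their summed RPKM in a library ran from 1447 to 2577, which was 0.413% to 0.696% of all RPKM. Lamp1, which coats the lysosomal membrane, Laptm5, a membrane protein of blood cells, the acid lipase Lipa, the hexosaminidase subunit Hexa, the saposin precursor Psap, the asparagine-specific peptidase Lgmn and progranulin, Grn, had a median over the 16 libraries of 100 RPKM or more. Another 14 had a median between 10 and 100 RPKM and 15 were below 10, the lowest being the iduronidase Idua at 2.75 RPKM. The group mean was highest in EV+RANKL at 72 h for 15 of the 36 genes, in EV at 72 h for 9 and in PBS at 48 h for 7. It was lowest in RANKL at 48 h for 12 genes and in EV+RANKL at 48 h for 9.

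**Figure D1:**
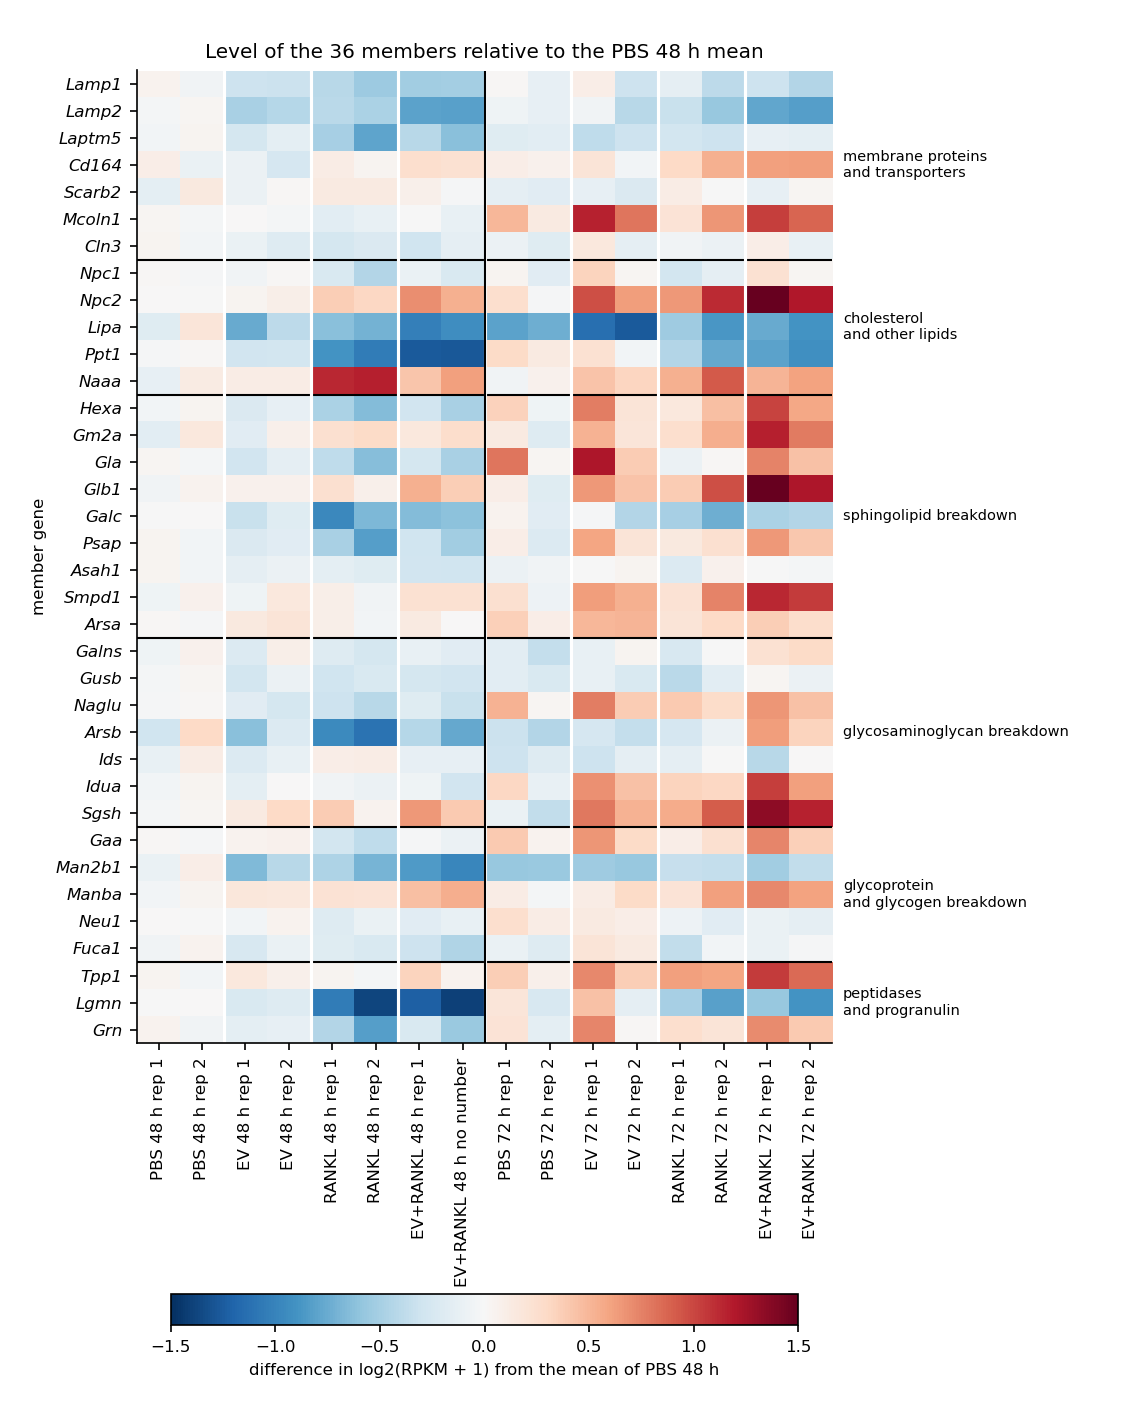
Difference in log2(RPKM + 1) of each of the 36 genes (rows, grouped by role) from its mean in PBS at 48 h, in each of the 16 libraries (columns, 48 h left and 72 h right of the black line), on a colour scale from blue (lower) to red (higher). Most of the genes were blue with RANKL at 48 h, while EV+RANKL at 72 h held the highest group mean of 15 genes.

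With RANKL alone for 48 h, 10 of the 36 genes fell and 1 rose, where 8.29% of all tested genes were called lower and 6.47% higher. The median change of the 36 was -0.23 on the log2 scale against 0.06 over all tested genes, and 24 of them had a change below 0. The genes that fell came from all 6 roles. They were 3 of 7 membrane proteins, 2 of 5 genes of cholesterol and other lipids, and 2 of 9 of sphingolipid breakdown. Glycosaminoglycan breakdown, glycoprotein and glycogen breakdown, and the peptidases had 1 each. Naaa, the acid amidase that splits N-acylethanolamines, was the gene that rose.

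Lgmn, or legumain, which cleaves proteins after asparagine, stood at 284 and 284 RPKM with PBS and at 137 and 109 RPKM with RANKL. It fell by 1.21 ± 0.20 (log2 change ± SE, limma adjusted p = 0.00133). Both RANKL libraries lay far below both PBS libraries. Ppt1, which removes palmitate from proteins, went from 38.0 and 39.1 RPKM to 20.3 and 18.2 RPKM, a log2 change of -0.97 ± 0.12 (adjusted p = 0.000198). Both RANKL libraries were far below both PBS libraries. Galc, which removes galactose from the myelin lipid galactosylceramide, was at 8.89 and 8.93 RPKM with PBS and at 4.07 and 5.20 RPKM with RANKL (-0.82 ± 0.14, adjusted p = 0.00174). The PBS libraries of Galc were nearly equal and both were higher than either RANKL library. Arsb, the sulfatase of dermatan and chondroitin sulfate, was at 38.5 and 59.1 RPKM with PBS and at 24.2 and 21.6 RPKM with RANKL (-1.03 ± 0.19, adjusted p = 0.00338). The PBS libraries of Arsb differed most between themselves, and 32.3% of its exon bases are shared with Gm26527 on the other strand, which counting without strand could not separate. Naaa was at 3.81 and 4.68 RPKM with PBS and at 10.48 and 10.7 RPKM with RANKL, a rise of 1.15 ± 0.12 (adjusted p = 8.27e-05). Both RANKL libraries stood well above the PBS libraries.

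The other 6 genes that fell did so by 0.44 to 0.67. They were Lipa, which frees fatty acids and cholesterol from lipoprotein lipids (-0.67 ± 0.15), Psap (-0.66 ± 0.16), Laptm5 (-0.64 ± 0.11), the alpha-mannosidase Man2b1 (-0.58 ± 0.11), Lamp1 (-0.48 ± 0.13) and Lamp2 (-0.44 ± 0.11). In each of these the libraries of RANKL lay below those of PBS. Npc1 and Npc2, which hand cholesterol on, had changes of -0.34 and 0.34, and neither was called. Grn, with 109 and 82.3 RPKM against 153 and 142 with PBS, also did not pass. Of the 9 tested macrophage markers 6 fell and 1 rose in the same comparison, and of the 9 tested osteoclast markers 6 rose and 0 fell. Leaving out PBS replicate 2 or RANKL replicate 2 of 48 h left 6 calls, and a fit to the 4 libraries compared or to the 8 libraries of 48 h gave 19 or 21.

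After 72 h of RANKL, 6 genes were higher and 5 lower than with PBS, where 9.73% of all tested genes were called higher and 9.13% lower. Over the 36 genes the median was 0.13, against -0.00 over all tested genes. In the same comparison 3 of the 9 tested macrophage markers fell and 1 rose, and all 9 tested osteoclast markers rose. The changes of the macrophage markers were above 0 for 4 and below 0 for 5. Lamp2, Ppt1, Galc and Lgmn were lower at both times, and Naaa was higher at both. Sgsh, Npc2, Glb1, Manba and Cd164 were called higher at 72 h and not at 48 h, and Neu1, the sialidase, was called lower (-0.31 ± 0.08).

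Sgsh, which removes sulfate from heparan sulfate, was at 4.99 and 3.98 RPKM with PBS and at 8.49 and 11.1 RPKM with RANKL (0.97 ± 0.16, adjusted p = 0.00137). Exons of Card14 on the other strand share 21.6% of its exon bases. Npc2, the soluble protein that passes cholesterol to Npc1, was at 51.9 and 43.1 RPKM with PBS and at 68.7 and 95.5 RPKM with RANKL (0.77 ± 0.17, adjusted p = 0.00721). Its higher RANKL value came from replicate 2, 1 of the 5 libraries that stood apart. Glb1, the beta-galactosidase that acts on GM1 ganglioside and keratan sulfate, was at 17.7 and 14.3 RPKM with PBS and at 21.6 and 32.9 RPKM with RANKL (0.71 ± 0.18, adjusted p = 0.0144), again with the higher value in replicate 2. Glb1 shares 5.49% of its exon bases with Tmppe on the same strand. Naaa was at 4.05 and 4.45 RPKM with PBS and at 6.59 and 8.91 RPKM with RANKL (0.72 ± 0.12, adjusted p = 0.00192). Both RANKL libraries were again above both PBS libraries.

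Ppt1 was at 47.2 and 42.6 RPKM with PBS and at 28.2 and 22.2 RPKM with RANKL (-0.82 ± 0.12, adjusted p = 0.000812). Lgmn was at 323 and 241 RPKM with PBS and at 200.7 and 161 RPKM with RANKL (-0.63 ± 0.20, adjusted p = 0.0425). The lower Lgmn library of PBS stood only a little above the higher one of RANKL. Galc was at 9.29 and 7.79 RPKM with PBS and at 5.99 and 4.97 RPKM with RANKL (-0.56 ± 0.14, adjusted p = 0.0161), with no overlap. Lamp2, the membrane protein needed for fusion of autophagosomes with lysosomes, was at 27.6 and 26.3 RPKM with PBS and at 22.7 and 19.0 RPKM with RANKL (-0.36 ± 0.11, adjusted p = 0.0434), again with no overlap. Without RANKL replicate 2 of 72 h, 3 genes were called in place of 11, and Npc2, Glb1, Lgmn, Galc and Lamp2 lost their calls. Leaving out PBS replicate 1 or 2 of 72 h left 5 or 6. A fit to the 4 libraries compared, or to the 8 libraries of 72 h, called 2 or 3 genes, and Sgsh and Ppt1 kept their calls in every alternative.

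The RANKL effect was then compared between both times. In this difference between effects, 33 of 36 genes had a value above 0, with a median of 0.27 against -0.03 over all tested genes, but 0 genes were called by limma, and 11 had an unadjusted p below 0.05. The share of all tested genes called was 0.0289%. Arsb (1.24 ± 0.28, adjusted p = 0.166), Psap (0.90 ± 0.22, 0.203) and Man2b1 (0.79 ± 0.16, 0.133) had the smallest p of the 36. Leaving out RANKL replicate 1 of 72 h raised the number of calls, both among the 36 genes and over all tested genes.

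**Figure D2:**
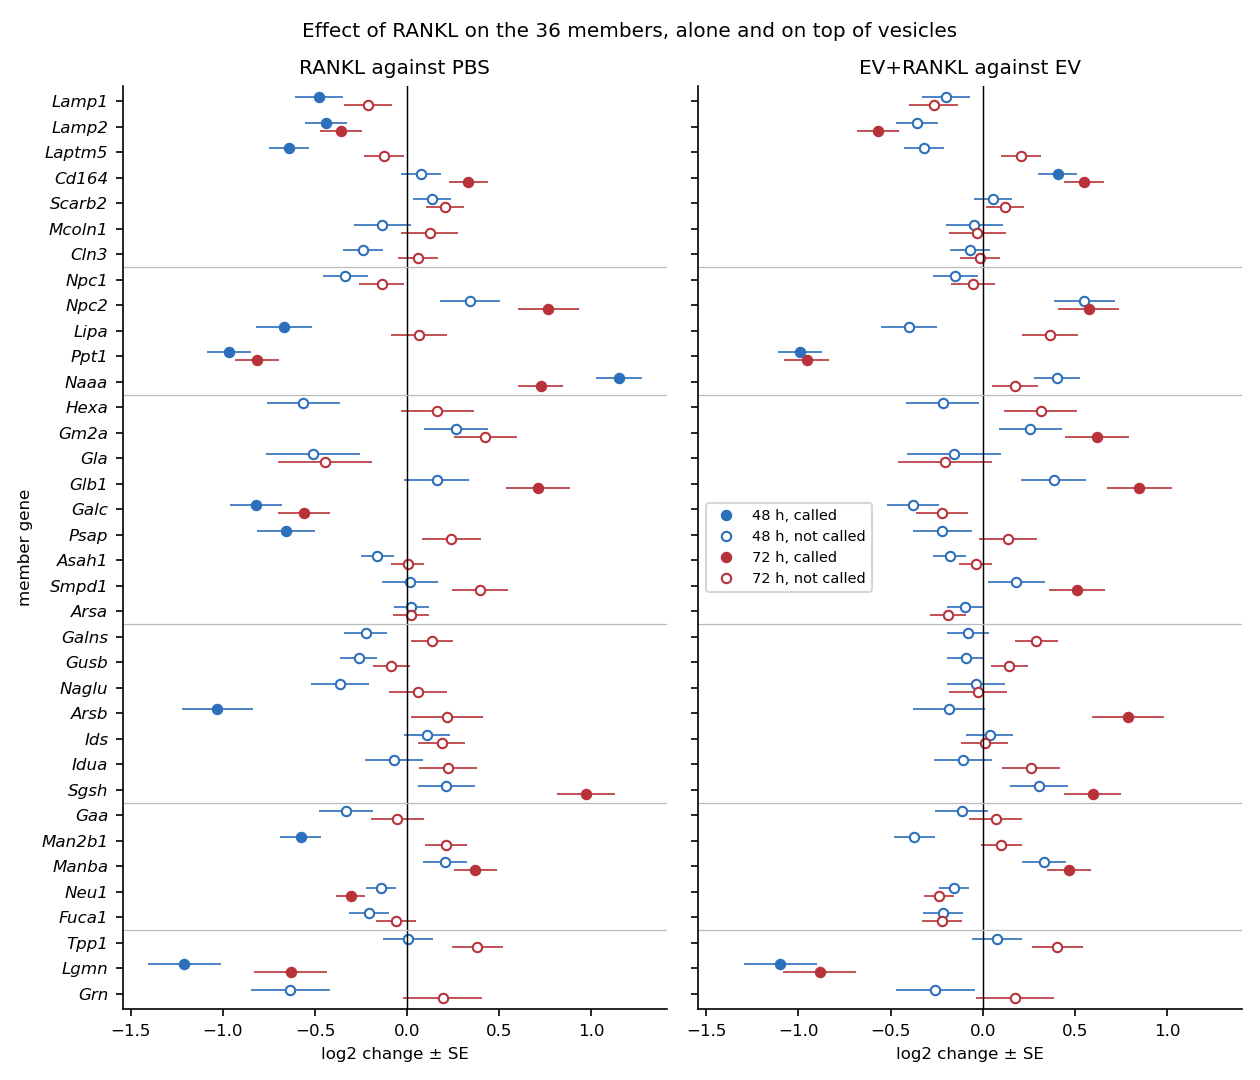
Log2 change of each of the 36 genes with its standard error, for RANKL against PBS (left) and EV+RANKL against EV (right), at 48 h (blue) and 72 h (red), filled where the limma adjusted p is below 0.05. Lgmn and Ppt1 were lower in all 4 comparisons, while Glb1, Sgsh and Npc2 were higher in both comparisons at 72 h.

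With vesicles alone for 48 h, 1 of the 36 genes fell and 0 rose, where 0.685% of all tested genes were called lower and 0.608% higher. Man2b1, which trims mannose from glycoproteins, was at 31.4 and 36.2 RPKM with PBS and at 20.9 and 24.96 RPKM with vesicles (-0.54 ± 0.11, limma adjusted p = 0.0350), with no overlap. Leaving out any 1 of the 4 libraries removed this call. Of the 9 tested osteoclast markers 3 rose in this comparison, and 0 of the 9 macrophage markers were called. The medians were -0.14 for the 36 and 0.03 for all tested genes, and 5 of the 36 had an unadjusted p below 0.05.

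At 72 h, vesicles alone raised 5 of the 36 genes, with 0 called lower by limma and 13 at an unadjusted p below 0.05 in either direction. Over all tested genes, 10.4% were called higher and 7.83% lower, so the count of the 36 was near that of the whole table. The medians were 0.23 and 0.03. Sgsh was at 10.1 and 8.23 RPKM with vesicles against 4.99 and 3.98 with PBS (0.89 ± 0.16, adjusted p = 0.00863). Npc2 was at 86.1 and 67.8 RPKM against 51.9 and 43.1 (0.68 ± 0.17, adjusted p = 0.0185). Mcoln1, the calcium channel of the lysosomal membrane, was at 15.0 and 11.5 RPKM against 9.12 and 6.87 (0.67 ± 0.16, adjusted p = 0.0169). Glb1 was at 26.3 and 22.3 RPKM against 17.7 and 14.3 (0.58 ± 0.18, adjusted p = 0.0405). In all of these both vesicle libraries lay above both PBS libraries. Smpd1, the acid sphingomyelinase, rose by 0.50 ± 0.15. In the same comparison 4 of 9 osteoclast markers and 2 of 9 macrophage markers, Csf1r and Adgre1, rose and 0 fell, and their part in the result was not tested.

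These vesicle calls at 72 h depended on single libraries, as did the calls over all tested genes. Without PBS replicate 2 or without EV replicate 1 of 72 h, 0 of the 36 genes were called, without PBS replicate 1 there were 8, and without EV replicate 2 there were 12. A fit to the 4 libraries compared, or to the 8 libraries of 72 h, called 0 of the 36. Over all tested genes these fits called 21 higher and 7 lower, and 39 higher and 0 lower. Both EV libraries of 72 h belong to the 5 that stood apart, so the comparison cannot be made without them. The comparison with PBS shares its controls with that of RANKL: at 72 h Sgsh changed by 0.89 with vesicles and 0.97 with RANKL, Npc2 by 0.68 and 0.77, and Glb1 by 0.58 and 0.71, while Ppt1 had -0.12 and -0.82. For the change of the vesicle effect over time, 34 of 36 genes had a value above 0, with a median of 0.28 against 0.01 over all tested genes. Of the 36, limma called 0, against 0.0193% of all tested genes, and 8 had an unadjusted p below 0.05. Leaving out EV replicate 2 of 72 h raised the number of calls, among the 36 genes and over all tested genes alike.

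**Figure D3:**
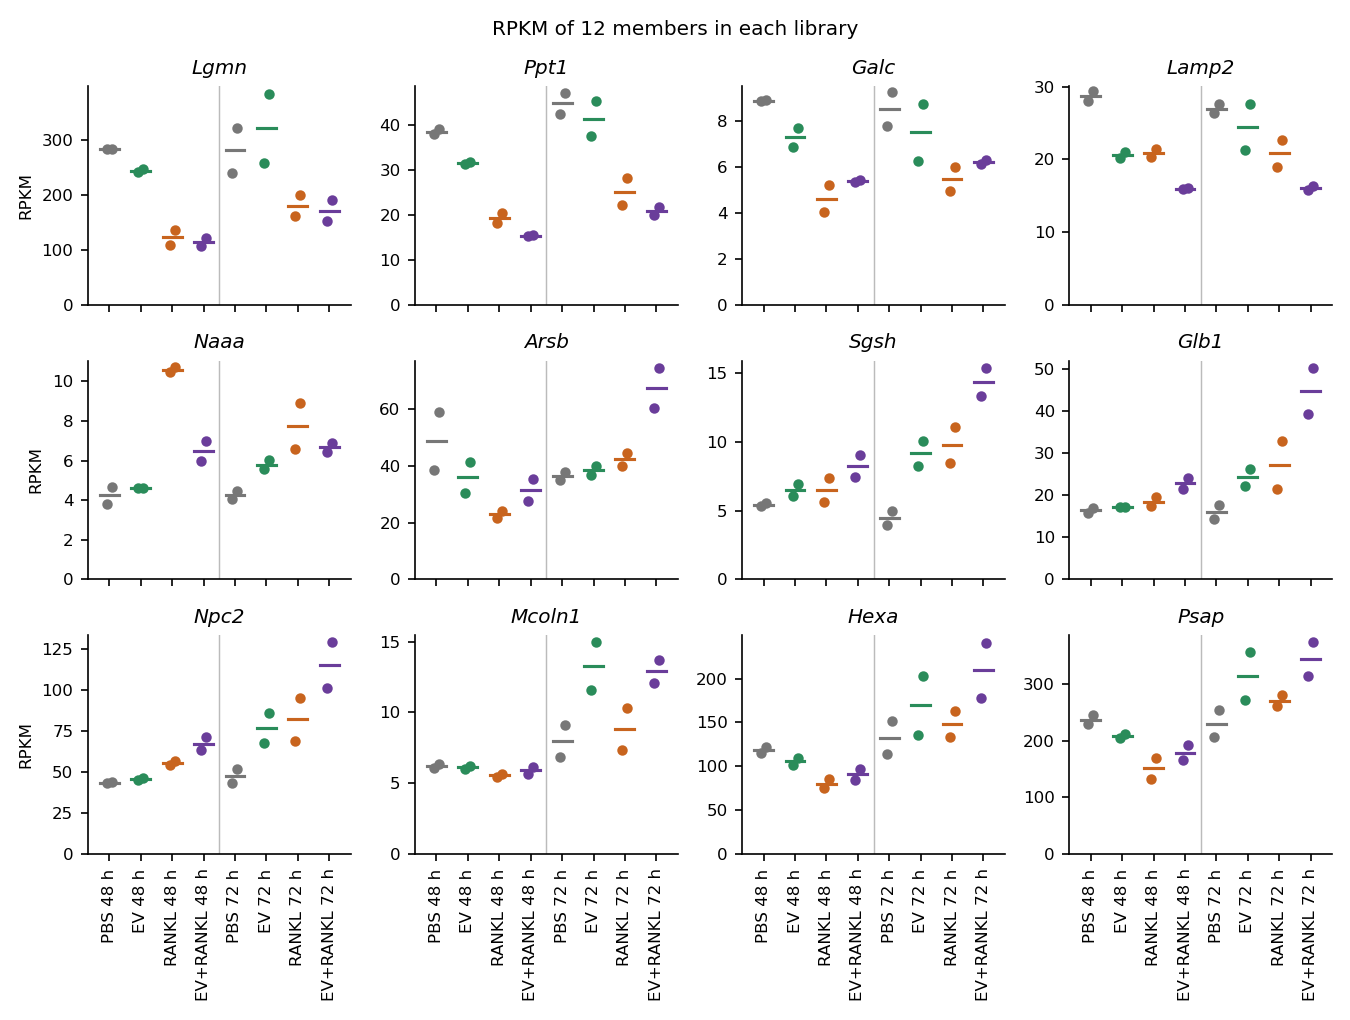
RPKM of 12 of the 36 genes in every library (points) with the group mean (bars), for PBS (grey), EV (green), RANKL (orange) and EV+RANKL (purple), with 48 h left and 72 h right of the line and every axis starting at 0. Lgmn and Ppt1 were low wherever RANKL was given, Naaa was highest with RANKL alone at 48 h, and Sgsh, Glb1, Npc2 and Arsb were highest with EV+RANKL at 72 h.

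Adding vesicles to RANKL changed 1 of the 36 genes at 48 h. Naaa was at 5.97 and 6.98 RPKM with both agents against 10.48 and 10.7 RPKM with RANKL alone (-0.64 ± 0.12, limma adjusted p = 0.0494), and 0 genes were called higher, where 0.164% of all tested genes were called lower and 0.270% higher. At an unadjusted p below 0.05 there were 6 genes in either direction. The groups of Naaa did not overlap, and both libraries with both agents lay above the highest PBS value of 4.68 RPKM. Leaving out any 1 of the 4 libraries removed the call. The medians were 0.08 for the 36 and 0.00 for all tested genes.

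At 72 h, vesicles on top of RANKL gave 0 calls by limma among the 36 genes, and 16 had an unadjusted p below 0.05. By the adjusted p, 1.30% of all tested genes were called higher and 0.531% lower. Their share at an unadjusted p below 0.05 was not counted. The medians were 0.24 and -0.02, and 27 of 36 had a change above 0. Glb1 was at 50.3 and 39.3 RPKM against 21.6 and 32.9 with RANKL alone (0.72 ± 0.18, adjusted p = 0.0582). Smpd1 was at 12.8 and 12.0 RPKM against 6.28 and 9.50 (0.62 ± 0.15, adjusted p = 0.0602). Neither gene was called, and in both the RANKL library nearest to the EV+RANKL libraries was replicate 2. Without that library calls rose among the 36 genes and over all tested genes. All 9 genes of sphingolipid breakdown and 6 of 7 of glycosaminoglycan breakdown had a change above 0, with medians of 0.49 and 0.38, none of them called.

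RANKL on top of vesicles, that is EV+RANKL against EV, lowered 2 genes and raised 1 at 48 h, where 5.58% of all tested genes were called lower and 3.96% higher. Lgmn was at 121 and 107 RPKM with both agents against 242 and 248 RPKM with vesicles alone (-1.10 ± 0.20, limma adjusted p = 0.00377). Ppt1 was at 15.5 and 15.3 RPKM against 31.4 and 31.8 RPKM (-0.99 ± 0.12, adjusted p = 0.000354). Both genes were far lower with no overlap, and both kept their calls in every alternative. Cd164, a sialomucin of lysosomes and endosomes, was at 6.27 and 6.19 RPKM against 4.78 and 4.15 RPKM (0.41 ± 0.11, adjusted p = 0.0313), a call lost without either EV or either EV+RANKL library. The medians were -0.11 and 0.03. Macrophage markers summed to 6108 to 7481 RPKM with vesicles and 2360.3 to 2809.8 with both agents, and osteoclast markers to 83.7 to 92.5 and 489.7 to 634.

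At 72 h the same comparison gave 8 higher and 3 lower genes, where 9.05% of all tested genes were called higher and 12.9% lower. The medians were 0.13 and -0.03. All 9 tested osteoclast markers rose in it, and of the 9 macrophage markers 5 fell and 1 rose. All 4 libraries of this comparison belong to the 5 that stood apart, so it lies wholly on 1 side of that division. Glb1 was at 50.3 and 39.3 RPKM against 26.3 and 22.3 with vesicles alone (0.85 ± 0.18, limma adjusted p = 0.00400). Arsb was at 74.5 and 60.2 RPKM against 39.9 and 36.9 (0.79 ± 0.19, adjusted p = 0.0115). Gm2a, the activator that presents GM2 ganglioside to hexosaminidase, was at 44.4 and 33.9 RPKM against 28.1 and 22.0 (0.62 ± 0.17, adjusted p = 0.0203). Sgsh was at 15.3 and 13.3 RPKM against 10.1 and 8.23 (0.60 ± 0.16, adjusted p = 0.0151). In each of these both EV+RANKL libraries were higher than both EV libraries.

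Npc2 (0.58 ± 0.17), Cd164 (0.55 ± 0.11), Smpd1 (0.51 ± 0.15) and Manba, the beta-mannosidase (0.47 ± 0.12), rose too. Ppt1 was at 21.7 and 20.0 RPKM against 45.4 and 37.5 RPKM (-0.96 ± 0.12, adjusted p = 0.000152). Lgmn was at 192 and 152 RPKM against 386 and 259 (-0.88 ± 0.20, adjusted p = 0.00660). Lamp2 was at 16.3 and 15.79 RPKM against 27.6 and 21.2 (-0.57 ± 0.11, adjusted p = 0.00340). The last 2 genes had 1 EV library well above the other, and still did not overlap. Without EV+RANKL replicate 1 of 72 h, 4 genes were called, with Glb1, Arsb, Gm2a and Sgsh among those lost. Lgmn lost its call without EV replicate 1 or EV+RANKL replicate 2 of 72 h. Without EV replicate 2 of 72 h, Arsb, Gm2a and Sgsh lost theirs.

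From 48 h to 72 h, calls among the 36 genes were mostly rises in the 3 treatments. With PBS, 0 rose and 2 fell by limma, 5 having an unadjusted p below 0.05, with 0.145% and 0.502% of all tested genes called. Lipa went from 294 and 379.5 RPKM to 190.4 and 199.95 (-0.77 ± 0.15, limma adjusted p = 0.0412), and Man2b1 from 31.4 and 36.2 RPKM to 22.3 and 22.7 (-0.56 ± 0.11, adjusted p = 0.0428). Leaving out any 1 of the 4 PBS libraries left 0 or 1 of these calls. With vesicles, 14 rose and 1, Lipa, fell, with 17.4% and 14.9% of all tested genes called. With RANKL, 7 rose and 0 fell, with 3.45% and 2.58% called. With EV+RANKL, 23 rose and 0 fell, with 17.4% and 21.5% called. In these last 2, 19 and 26 of the 36 had an unadjusted p below 0.05, a share not counted over all tested genes. Of the 9 tested osteoclast markers, 3 rose and 1 fell over time with vesicles, 4 rose with RANKL and 8 rose with EV+RANKL. Of the 9 macrophage markers, 2 rose and 1 fell with vesicles, 1 rose with RANKL, and 4 rose and 1 fell with EV+RANKL. The medians of the 36 were -0.03, 0.30, 0.28 and 0.40 in this order, against 0.01, 0.02, -0.02 and -0.02 over all tested genes.

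Mcoln1, Hexa, Psap, Naglu and Tpp1 rose with each of the 3 treatments. Hexa, which with its partner subunit degrades GM2 ganglioside, went from 97.2 and 84.3 RPKM to 241 and 178 RPKM with EV+RANKL (1.18 ± 0.20, adjusted p = 0.00154), from 84.9 and 75.5 to 133 and 163 with RANKL (0.87 ± 0.20), and from 102 and 109 to 203 and 136 with vesicles (0.65 ± 0.20). With PBS its values were 116 and 122 RPKM at 48 h and 152 and 114 at 72 h, which overlap. Psap, cut into the saposins that help glycosidases reach lipids, went from 193 and 165 RPKM to 374 and 314 RPKM with EV+RANKL (0.94 ± 0.16, adjusted p = 0.00157). Its PBS values were 245 and 229.7 RPKM at 48 h and 254 and 207 at 72 h. In both RANKL groups it thus stood below PBS at 48 h. At 72 h Psap stood above PBS with EV+RANKL, with RANKL alone (262 and 280 RPKM) and with vesicles alone (357 and 271 RPKM). Neither agent alone gave a call of Psap against PBS at 72 h. Mcoln1 went from 6.17 and 5.67 RPKM to 13.7 and 12.1 RPKM with EV+RANKL (1.01 ± 0.16, adjusted p = 0.00128). Naglu, a glucosaminidase of heparan sulfate, and Tpp1, a tripeptidyl peptidase, rose by 0.80 ± 0.16 and 0.76 ± 0.14 there.

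By role, calls higher at 72 h than at 48 h with EV+RANKL ran as follows. They covered 7 of 9 genes of sphingolipid breakdown, 5 of 7 of glycosaminoglycan breakdown and all 3 of the peptidases and progranulin. They also covered 3 of 5 of glycoprotein and glycogen breakdown, 3 of 7 membrane proteins and 2 of 5 genes of cholesterol and other lipids. Over all tested genes, 17.4% were called higher and 21.5% lower. Of the 36 genes, 34 had a change above 0. Arsb rose by 1.08 ± 0.19, Gla, the alpha-galactosidase A that clears globotriaosylceramide, by 0.96 ± 0.26 and Grn by 0.95 ± 0.21. Asah1, the acid ceramidase, had the lowest rise among the 23 called genes, 0.28 ± 0.09. Of the 2 libraries of EV+RANKL at 72 h, replicate 2 had a summed RPKM of the 36 genes of 2191 against 2545 in replicate 1. Replicate 1 was the higher in most of the genes, Hexa, Psap, Gla and Grn among them. Without it, or without the unnumbered library of EV+RANKL at 48 h, 10 genes were called in place of 23. With vesicles alone the count of 15 fell to 4, 5 or 1 without EV replicate 1 of 48 h, EV replicate 2 of 48 h or EV replicate 1 of 72 h, and was 22 without EV replicate 2 of 72 h. With RANKL alone the count of 7 became 1, 0, 13 and 0 without replicate 1 of 48 h, replicate 2 of 48 h, replicate 1 of 72 h and replicate 2 of 72 h. In each of these fits the count over all tested genes moved in the same direction. These 16 libraries include the 5 that stood apart, which hold all of EV and EV+RANKL at 72 h, so time and that division cannot be told apart there. Whether the time course differed between EV+RANKL and the other treatments was not tested.

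**Figure D4:**
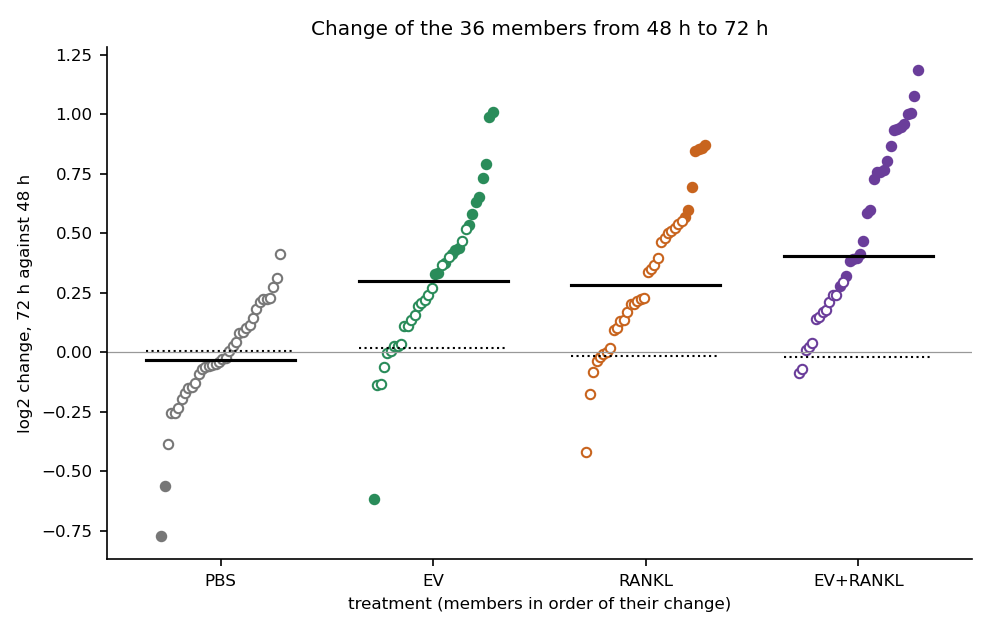
Log2 change from 48 h to 72 h of each of the 36 genes (points, in order of their change, filled where the limma adjusted p is below 0.05) with PBS, EV, RANKL and EV+RANKL, with the median of the 36 (solid line) and of all tested genes (dotted line). The median of the 36 was -0.03 with PBS and between 0.28 and 0.40 with the 3 treatments, while that of all tested genes stayed between -0.02 and 0.02.

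Vesicles and RANKL together were compared with the sum of their separate effects. Of the 36 genes, limma called 0 at either time, against 0.00965% of all tested genes at 48 h and 0.00965% at 72 h, and 4 and 1 had an unadjusted p below 0.05. Naaa had the largest departure below 0 at both times, at -0.74 ± 0.18 (adjusted p = 0.530) at 48 h and -0.55 ± 0.18 (adjusted p = 0.345) at 72 h. Arsb had the largest above 0, 0.85 ± 0.28 (adjusted p = 1) and 0.57 ± 0.28 (adjusted p = 0.556). With both agents Naaa was thus below, and Arsb above, what the sum of the separate changes gives, by amounts that did not pass.

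Of the 36 genes, 16 were called in none of the 8 treatment comparisons, and 5 of these were called in no comparison over time either. Those 5 were Scarb2, the carrier of glucocerebrosidase, at 10.6 to 13.98 RPKM over the 16 libraries, Cln3, a membrane protein of Batten disease, at 5.57 to 7.995, Npc1, the cholesterol exporter, at 5.31 to 9.77, Gusb, the beta-glucuronidase, at 53.9 to 72.8, and Ids, the iduronate sulfatase, at 7.67 to 11.6. The other 11 were Hexa, Gla, Asah1, Arsa, Galns, Naglu, Idua, Gaa, Fuca1, Tpp1 and Grn, which were called only over time. Among them Gaa, the glycogen-digesting alpha-glucosidase, ran from 7.05 to 16.4 RPKM, Arsa, the sulfatase of sulfatide, from 3.26 to 5.22, Galns, the sulfatase of keratan sulfate, from 7.21 to 11.8, and Fuca1, the fucosidase, from 10.6 to 17.2. Naaa and Arsb were called in both directions among the treatment comparisons.

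Other lysosomal genes were counted from 4 lists, with Gnptab and Sumf1 in both the enzyme list and the delivery list, and Cd68 in both the membrane list and the macrophage markers. Of 21 tested further enzymes, 4 fell and 1, Gnptab, rose with RANKL at 48 h, where 8.29% of all tested genes were called lower and 6.47% higher. With vesicles at 72 h, 2 rose and 0 fell (10.4% and 7.83% of all tested genes). From 48 h to 72 h with EV+RANKL, 9 rose and 0 fell (17.4% and 21.5%). Of 25 tested further membrane proteins, 5 fell and 0 rose with RANKL at 48 h, 6 rose and 0 fell with vesicles at 72 h, and 12 rose and 0 fell over time with EV+RANKL, beside the same shares. The metal transporter Slc11a1 (-1.23 ± 0.14) and the amino acid transporter Slc36a1 (-0.89 ± 0.09) had the smallest adjusted p among those that fell with RANKL at 48 h. The sialic acid exporter Slc17a5 (1.09 ± 0.15), the cystine exporter Ctns (0.93 ± 0.14) and Pld4, an exonuclease of the phospholipase D family (0.90 ± 0.14) had the smallest among those that rose over time with EV+RANKL.

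Of 22 genes that deliver enzymes to the lysosome, RANKL for 48 h raised 2 and lowered 0 (6.47% and 8.29% of all tested genes). RANKL for 72 h raised 2 and lowered 1 (9.73% and 9.13% of all tested genes), so the list as a whole was called no more often than the table. Gnptab, which makes the mannose 6-phosphate tag of lysosomal enzymes, rose at both times (0.45 ± 0.11 and 0.78 ± 0.11), as did the receptor M6pr (0.42 ± 0.11 and 0.35 ± 0.11). Over time with EV+RANKL, 3 rose and 5 fell in this list, where 17.4% of all tested genes were called higher and 21.5% lower. Among 19 tested genes of nutrient signalling and its transcription factors, RANKL for 48 h raised 1, Mitf, and lowered 2, Tfe3 and Lamtor4, a share near that of all tested genes. Mitf, a relative of TFEB with a role in osteoclasts, rose by 0.43 ± 0.12 at 48 h and by 0.79 ± 0.12 at 72 h. Tfe3, of the same family, fell by 0.50 ± 0.10 at 48 h. Tfeb had a change of -0.11 at 48 h, and it rose over time with EV+RANKL by 0.36 ± 0.09.

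The E-box genes shown above were found among all kinds of calls. With RANKL at 48 h, 2 of the 10 genes that fell held the E-box, Lamp1 and Lgmn, as did 9 of the 22 genes with a promoter that were not called. At 72 h, 3 of the 6 that rose held it, Cd164, Glb1 and Sgsh, and 1 of the 5 that fell, Lgmn. With vesicles at 72 h it was present for 3 of the 5 that rose, Glb1, Mcoln1 and Sgsh. Over time with EV+RANKL it was present for 8 of the 21 genes with a promoter that rose and for 3 of the 12 that were not called. These counts are a description of the promoters listed.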

How the data were processed

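RNA was sequenced from TruSeq mRNA libraries of total RNA. The submitters' processing notes name FastQC, HISAT2 and Partek and, as builds, GRCh38 and hg38, which are human, while the table holds mouse gene symbols. For mouse, neither build nor annotation, nor the counting and its use of strand, is given in the sources used here.

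The authors' deposited values were read as log2(RPKM + 1), a unit worked out from the values because no label states it. In base 2 a median of 78.5% of the low values of single-exon genes per library were within 0.05 of a whole read, in base e 60.4% and in base 10 35.9%. No read counts were used. The column of 1 EV+RANKL library of 48 h gives its group but not its number, and it is called the unnumbered library.

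The values were fitted with limma 3.58.1 (R 4.3.3) with a trend, all 16 libraries and 8 group means in 1 fit, for genes reaching 1 RPKM in at least 2 libraries. The pseudocount of 1 understates changes of low genes. Of the 36 genes, the 4 of largest rise and the 4 of largest fall per treatment comparison are given in every library. Of the further lists together, the 3 genes of smallest adjusted p in a comparison could be named, and Gnptab and Mitf at 48 h, M6pr, Tfe3, Lamtor4 and Tfeb were named after their values were seen. The genes and lists were chosen with earlier results of these data known. Overlaps of exons were read from GENCODE M21, and promoters from RefSeq. The labels do not say what a replicate number marks, and the reported fit has no block.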

Additional observations from a re-analysis of the deposited data

How the results depend on the processing

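Counts are of the 36 genes called by limma, in parentheses after each comparison as fitted. A pseudocount of 5 gave 2 for EV+RANKL against RANKL at 72 h (0). With no filter on low values there were 7 for RANKL at 72 h (11), 0 for EV at 48 h (1), 3 for EV at 72 h (5), 0 for EV+RANKL against RANKL at 48 h (1), and over time 0 in PBS (2), 8 in EV (15) and 0 in RANKL (7). Median centring gave 1 for EV+RANKL against RANKL at 72 h, 5 for EV+RANKL against EV at 48 h (3) and 1 over time in PBS. Without a trend, EV+RANKL against RANKL at 48 h had 0. Fits to only the groups compared gave 19 and 2 for RANKL at 48 h (11) and 72 h, 4 and 0 for EV, 10 and 6 for EV+RANKL against EV (11 at 72 h), and over time 0 in PBS, 5 in EV and 0 in RANKL. The labels do not say that a replicate number marks a shared culture or day. Deviations of same-numbered libraries correlated above 0.1 in 11 of 21 pairs of groups and below -0.1 in 0 (-0.04 to 0.53). The highest values were all at 72 h, 0.53 for EV and EV+RANKL, 0.46 for PBS and EV and 0.40 for PBS and EV+RANKL. What same-numbered libraries share was not tested, and the reported fit does not account for it. With the replicate block, which leaves out the unnumbered library, there were 8 for EV at 72 h, 0 for EV+RANKL against RANKL at 48 h and 1 over time in PBS.

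Of 2 alternatives chosen after seeing the data, scaling to the summed RPKM outside the mitochondrial genome gave 2 for EV+RANKL against RANKL at 72 h and 5 for EV+RANKL against EV at 48 h. Using only libraries of the same time gave 21, 4, 3 and 9 at 48 h for RANKL, EV, EV+RANKL against RANKL and EV+RANKL against EV, and 3, 0 and 7 at 72 h for RANKL, EV and EV+RANKL against EV. The cause of these shifts was not tested.

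Leave-one-out counts at 48 h ran from 6 to 9 for RANKL, were 0 for EV and for EV+RANKL against RANKL, and ran from 2 to 3 for EV+RANKL against EV. At 72 h they ran from 3 to 12, 0 to 12, 0 to 11 and 4 to 9 in the same order. Over time they ran from 0 to 1 in PBS, 1 to 22 in EV, 0 to 13 in RANKL and 10 to 18 in EV+RANKL. For the change over time they ran from 0 to 2 for the RANKL effect and 0 to 8 for the EV effect.

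Of 406 alternative fits of 29 named gene and comparison pairs, 328 kept the call, 78 lost it and 0 reversed, and 10 pairs kept it in every alternative. Counts over all tested genes moved as well when single libraries were left out, those for the change of the effects over time included. At 48 h they went from 1530 to between 710 and 908 for RANKL, from 134 to between 31 and 56 for EV, from 45 to between 2 and 11 for EV+RANKL against RANKL and from 988 to between 363 and 587 for EV+RANKL against EV. At 72 h they went from 1954 to between 745 and 2854, from 1895 to between 36 and 2903, from 190 to between 5 and 1814 and from 2278 to between 1231 and 2265 in the same order. Over time they went from 67 to between 1 and 242 in PBS, from 3347 to between 641 and 4091 in EV, from 625 to between 0 and 1744 in RANKL and from 4027 to between 1409 and 3213 in EV+RANKL. The other settings gave 28 to 2215 for EV at 72 h, 440 to 2099 for RANKL at 72 h and 1218 to 3127 for RANKL at 48 h. Scaling moved the share of higher calls among all called genes from 43.9% to 57.9% for RANKL at 48 h and from 51.6% to 61.7% at 72 h (outside the mitochondrial genome), from 57.2% to 39.4% for EV at 72 h and from 53.9% to 42.5% over time in EV (centring), and from 41.2% to 51.8% or 51.9% for EV+RANKL against EV at 72 h. The 2 libraries a group limit the precision of every change.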
